A study of Mus musculus with 6 samples.

Results

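A set of 10 genes of glucose breakdown was followed in ribosome-associated RNA of D2 receptor-expressing neurons of the medial prefrontal cortex (mPFC): Gpi1, Aldoa, Aldoc, Tpi1, Gapdh, Pgk1, Eno2, Pkm, Ldha and Ldhb. They were chosen by name from the 47729 genes of the deposited table, in which they hold 83 of the 115220 transcripts. The choice was made with the differences between these libraries known, above all the exchange between transcripts of Ldha, so the members' differences between the groups are descriptions. Where a count of members called in the fit over all genes is given beside its background, it describes the values that led to the choice and supports nothing.

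The study compared 3 Ctrl libraries with 3 libraries of the group named Gsk3sKO in mPFC D2. All came from adult male C57BL/6 mice, with an age of 2.5 to 3 months given for the viral injection. The mice carried D2Cre, LSL-Flag-Cas9 and RiboTag, so Cas9 and the tagged ribosomal protein Rpl22 were present in both groups. Ctrl mice received AAV GFP and Gsk3sKO mice received AAV Gsk3sgRNA/GFP in the mPFC, and tissue was taken 3 weeks later. Cre was driven by a D2 receptor transgene, and RiboTag immunoprecipitation recovers RNA bound to the tagged ribosomes, the translatome. The labels do not say whether a library is 1 mouse or a pool. The p-values below set the difference between groups against the variation among libraries of a group. That variation may be technical, so the p-values need not extend to other mice.

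Glycolysis splits glucose to pyruvate in the cytosol. Glucose-6-phosphate isomerase (Gpi1), the aldolases (Aldoa, Aldoc) and triosephosphate isomerase (Tpi1) act before the energy-yielding steps, and glyceraldehyde-3-phosphate dehydrogenase (Gapdh), phosphoglycerate kinase (Pgk1), enolase (Eno2) and pyruvate kinase (Pkm) carry those out. Lactate dehydrogenase, built from the subunits Ldha and Ldhb, interconverts pyruvate and lactate. In the brain, Aldoc is known as an astrocyte enzyme, Eno2 as the neuronal enolase, and Ldhb as the lactate dehydrogenase subunit that neurons favor.

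The clearest difference lay inside Ldha, between a pair of protein-coding transcripts with the same coding exons and different first exons. Ldha lies on the plus strand at chr7:46841475-46855627 (GRCm38). The first exon of Ldha-202 (ENSMUST00000048209) is chr7:46845839-46845917, and that of Ldha-201 (ENSMUST00000005051) is chr7:46847131-46847388, within the first intron of Ldha-202. The first exons are 79 and 258 bases long, and reads from the shared exons can be divided between the transcripts only by estimate. The 250 bases upstream of each RefSeq start (GRCm38.p6, plus strand) are shown because the transcripts differ in where they begin. Capitals mark ACGTG, its relative GCGTG, and the motif TGACGTCA, on either strand.
Upstream start, chr7:46845554-46845803: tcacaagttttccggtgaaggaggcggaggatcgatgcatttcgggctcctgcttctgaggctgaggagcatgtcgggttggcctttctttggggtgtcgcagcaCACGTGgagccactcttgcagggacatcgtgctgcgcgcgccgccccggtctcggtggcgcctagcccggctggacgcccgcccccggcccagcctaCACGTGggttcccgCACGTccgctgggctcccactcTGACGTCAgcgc
Downstream start, chr7:46846832-46847081: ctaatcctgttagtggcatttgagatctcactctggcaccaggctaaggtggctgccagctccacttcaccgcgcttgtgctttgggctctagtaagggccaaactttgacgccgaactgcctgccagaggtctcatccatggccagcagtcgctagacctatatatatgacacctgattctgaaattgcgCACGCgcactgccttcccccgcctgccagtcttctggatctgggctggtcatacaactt

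The upstream window was 67.2% G and C and held ACGTG in 3 places, 2 of them within the palindrome CACGTG, and TGACGTCA in 1 place. The downstream window was 54.4% G and C and held GCGTG in 1 place. The core letters of the hypoxia response element are ACGTG or GCGTG, so each window held a match to that core. TGACGTCA is the cyclic AMP response element. Among 32536 windows of the same length upstream of mouse gene starts, 16.7% held ACGTG, 28.3% GCGTG, 6.04% CACGTG and 1.56% TGACGTCA on either strand. These matches describe the letters only.

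Ldha-201, the transcript that begins downstream, stood at 77.1, 79.4 and 76.7 FPKM (fragments per kilobase of transcript, scaled to the mapped fragments of the library) in the Ctrl libraries. In the Gsk3sKO libraries it stood at 0, 3.17 and 0.192 FPKM. Its groups lay far apart, and in Ctrl its 3 values were within 3 FPKM of each other. Ldha-202, which begins upstream, was at 19.6, 17.1 and 17.1 FPKM in Ctrl, compared with 94.5, 78.7 and 63.4 FPKM in Gsk3sKO, again without overlap. The share of the Ldha gene total held by Ldha-201 was 74.9% ± 1.9 in Ctrl against 1.11% ± 1.72 in Gsk3sKO (SD, n = 3 each), and that of Ldha-202 was 17.3% ± 1.23 (SD, n = 3) and 84.5% ± 10.7 (SD, n = 3). On the scale of log2(FPKM + 1), the difference of Ldha-201 (Gsk3sKO minus Ctrl) was -5.53 with a standard error of 0.54, and that of Ldha-202 was 2.06 with a standard error of 0.18.

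The gene total of Ldha moved little by comparison. It was 105.4, 106.2 and 99.7 FPKM in Ctrl and 97.6, 102.3 and 79.3 FPKM in Gsk3sKO, so that the groups overlapped. Its log2 fold change was -0.16 (standard error 0.14), or -0.05 without Gsk3sKO replicate 3, the lowest library, and its direction turned to 0.20 when the libraries were scaled to equal summed FPKM. In these bulk libraries, fewer cells of a type and less RNA per cell cannot be told apart. The sum of Ldha-201 and Ldha-202 was 95.6 ± 1.62 FPKM in Ctrl against 80.0 ± 15.5 FPKM in Gsk3sKO (SD, n = 3 each).

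A pair of shorter Ldha transcripts also differed between libraries. Ldha-205 (ENSMUST00000125862), a 4-exon fragment that shares the upstream first exon, was at 4.05, 6.27 and 1.64 FPKM in Ctrl, compared with 0.28, 1.40 and 0.03 FPKM in Gsk3sKO, the direction opposite to that of Ldha-202. Ldha-206 (ENSMUST00000132157) was at 2.36, 1.48 and 2.95 FPKM in Ctrl, compared with 1.73, 15.3 and 13.3 FPKM in Gsk3sKO, high in 2 libraries of 3. Summed over the 4 transcripts with the upstream first exon, the level was 23.0 ± 2.67 FPKM in Ctrl against 80.6 ± 15.2 FPKM in Gsk3sKO (SD, n = 3 each).

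**Figure D1:**
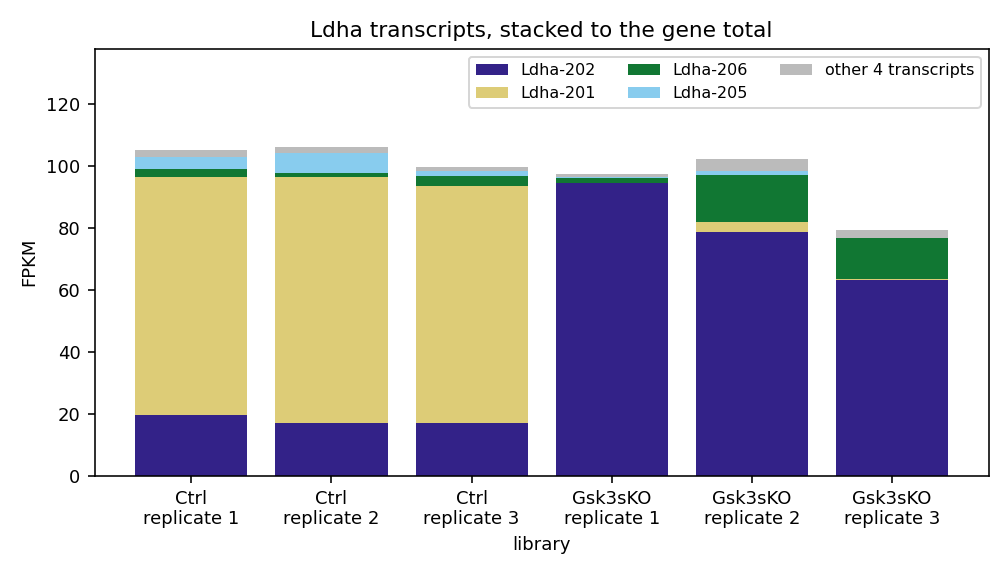
FPKM of the Ldha transcripts in each library, stacked so that a bar's height is the gene total. Ldha-201 fills most of the 3 Ctrl bars and Ldha-202 most of the 3 Gsk3sKO bars, while the height runs from 79.3 to 106.2 FPKM.

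At the level of gene totals, the members differed less. In Ctrl they ranged over the values from Aldoa, at 831 ± 64.4 FPKM (SD, n = 3), to Aldoc, at 35.7 ± 8.13 FPKM (SD, n = 3). Pkm followed Aldoa at 469 ± 58.7 FPKM, and Ldhb followed Pkm at 225 ± 16.8 FPKM (SD, n = 3 each). The Ctrl ranges of Ldhb and Eno2, of Eno2 and Tpi1, of Tpi1 and Gpi1, and of Gpi1 and Pgk1 overlapped, so the order within that stretch was not fixed by these libraries. Among the gene totals tested, Aldoc lay at percentile 84.5 in Ctrl and the other members at 92.5 or higher.

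**Figure D2:**
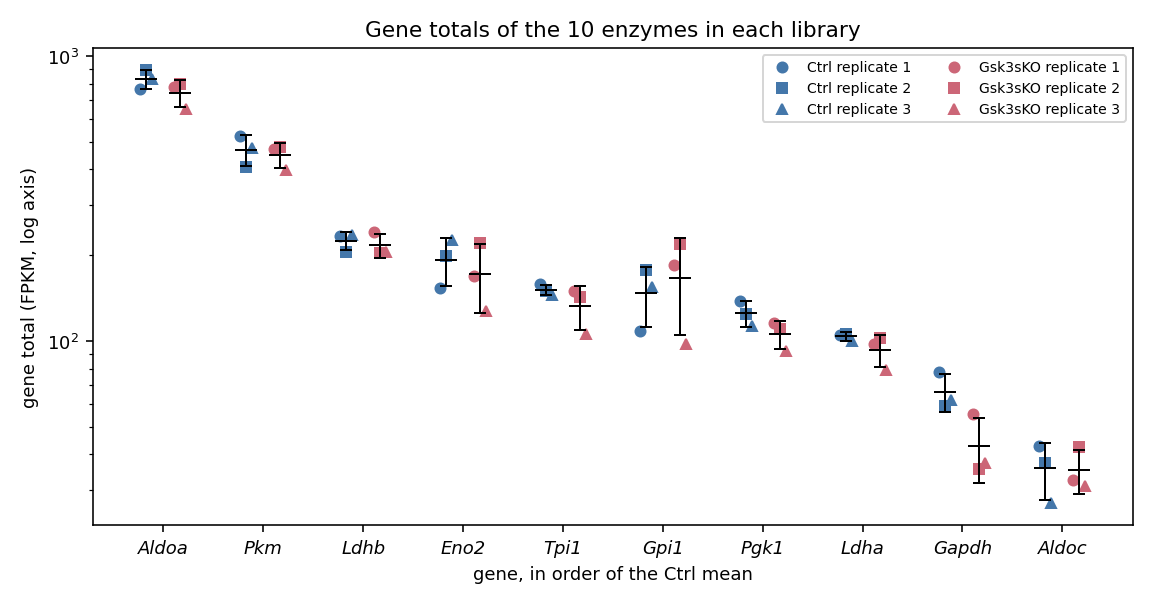
Gene totals in FPKM on a log axis for each of the 6 libraries, with genes in the order of their Ctrl means and bars for the mean ± SD of 3 libraries. Gapdh, counted without its near-identical copies, is the gene whose groups do not overlap, and Gsk3sKO replicate 3 is the lowest library for 7 of the 10 genes.

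Of the 10 members, 9 had a lower fitted mean in Gsk3sKO and 1, Gpi1, a higher one, beside 58.9% of all gene totals that were lower. The median log2 fold change was -0.16, with a range from -0.64 to 0.13, and that of all 12874 gene totals tested was -0.06. These directions depended on the scaling. With each library rescaled to the median ratio, 8 members were lower and the median of all gene totals was -0.02. With the libraries scaled to equal summed FPKM, 1 member, Gapdh, was lower and 9 were higher, with a median of 0.20 beside 0.25 for all gene totals. With protein-coding transcripts alone, 8 were lower, and Gpi1 turned to -0.16, Eno2 to 0.12 and Aldoc to 0.03. Gsk3sKO replicate 3 was the lowest library for 7 members, and without it 6 members were lower, 4 were higher and the median was -0.03. At an unadjusted p under 0.05 in limma, 1 member, Gapdh, was called, beside 6.56% of all gene totals (5.2% lower and 1.36% higher). After adjustment 0 were called, beside 0.0466%. An ordinary linear model also called 1, beside 695 of 12874 gene totals. Gapdh was also the 1 member whose groups did not overlap, beside 12% of gene totals.

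**Figure D3:**
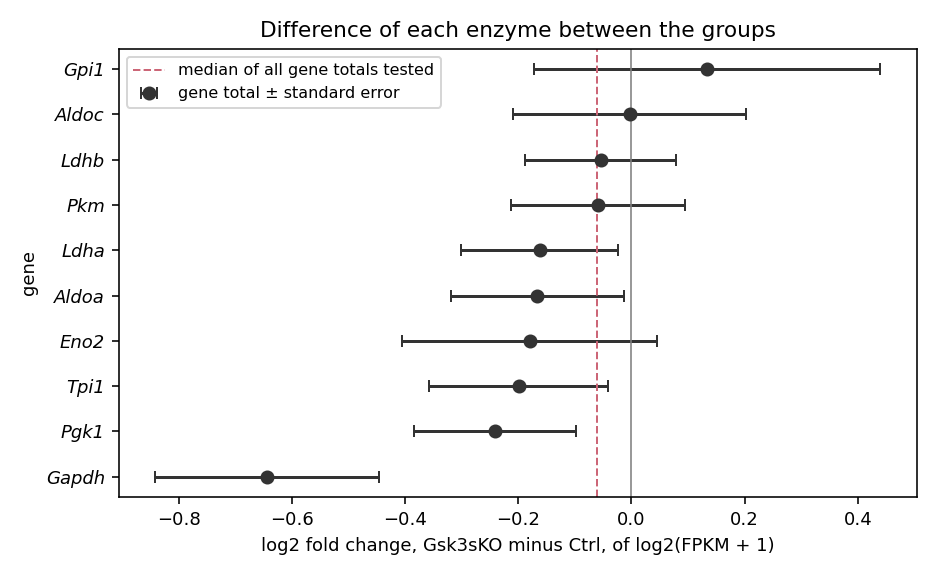
Fitted difference of each gene total between the groups (Gsk3sKO minus Ctrl, log2 of FPKM + 1), with bars for the standard error and a dashed line at -0.06, the median of all gene totals tested. Gapdh lies at -0.64 and the other members between -0.24 and 0.13, and with libraries scaled to equal summed FPKM all but Gapdh were above 0.

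Among the enzymes before the energy-yielding steps, Gpi1 varied most. Its totals were 108.1, 177.6 and 155.1 FPKM in Ctrl and 184.8, 218.2 and 97.7 FPKM in Gsk3sKO, and its log2 fold change ran from -0.10 to 0.48 as single libraries were left out and was -0.16 with protein-coding transcripts alone. Much of the spread lay in transcript Gpi1-207 (ENSMUST00000205870), annotated as subject to nonsense-mediated decay, at 24.6, 70.4 and 44.6 FPKM in Ctrl and 84.9, 127.3 and 23.5 FPKM in Gsk3sKO. The coding transcript Gpi1-201 (ENSMUST00000038027) was at 70.7 ± 12.2 FPKM in Ctrl and 60.8 ± 14.4 FPKM in Gsk3sKO (SD, n = 3 each). Tpi1 was at 158.0, 150.0 and 145.0 FPKM in Ctrl, compared with 149.8, 142.8 and 105.8 FPKM in Gsk3sKO, and nearly all of it was Tpi1 transcript ENSMUST00000172132, at 148 ± 6.08 and 130 ± 22.9 FPKM (SD, n = 3 each). Only Gsk3sKO replicate 3 stood below the others by more than 30 FPKM.

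Aldoa, the aldolase of most tissues, totalled 766.0, 894.7 and 833.2 FPKM in Ctrl and 775.9, 798.0 and 652.1 FPKM in Gsk3sKO. Aldoc totalled 35.7 ± 8.13 FPKM in Ctrl and 35.3 ± 6.23 FPKM in Gsk3sKO (SD, n = 3 each), and held 4.15% ± 1.10 and 4.54% ± 0.51 of the aldolase sum (SD, n = 3 each). Its main transcript, Aldoc ENSMUST00000017534, was at 31.5 ± 12.2 and 33.2 ± 5.47 FPKM (SD, n = 3 each). The aldolase balance thus differed by less than the spread of the libraries.

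The division of Aldoa between its transcripts varied within groups as well as between them. Aldoa-203 (ENSMUST00000106348), whose first exon lies upstream of that of Aldoa-201, was at 102.8, 62.4 and 107.1 FPKM in Ctrl, compared with 158.1, 217.3 and 461.1 FPKM in Gsk3sKO. The groups did not overlap, and Gsk3sKO replicate 3 stood far above the other Gsk3sKO libraries. Aldoa-201 (ENSMUST00000032934), with the same coding exons, was at 484.2, 332.8 and 528.7 FPKM in Ctrl, compared with 454.4, 420.0 and 172.0 FPKM in Gsk3sKO. Aldoa-202 (ENSMUST00000087566) was at 139.4, 475.7 and 152.3 FPKM in Ctrl, compared with 126.7, 111.7 and 0.89 FPKM in Gsk3sKO. Their sum was 795 ± 72.5 FPKM in Ctrl and 707 ± 63.8 FPKM in Gsk3sKO (SD, n = 3 each).

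**Figure D4:**
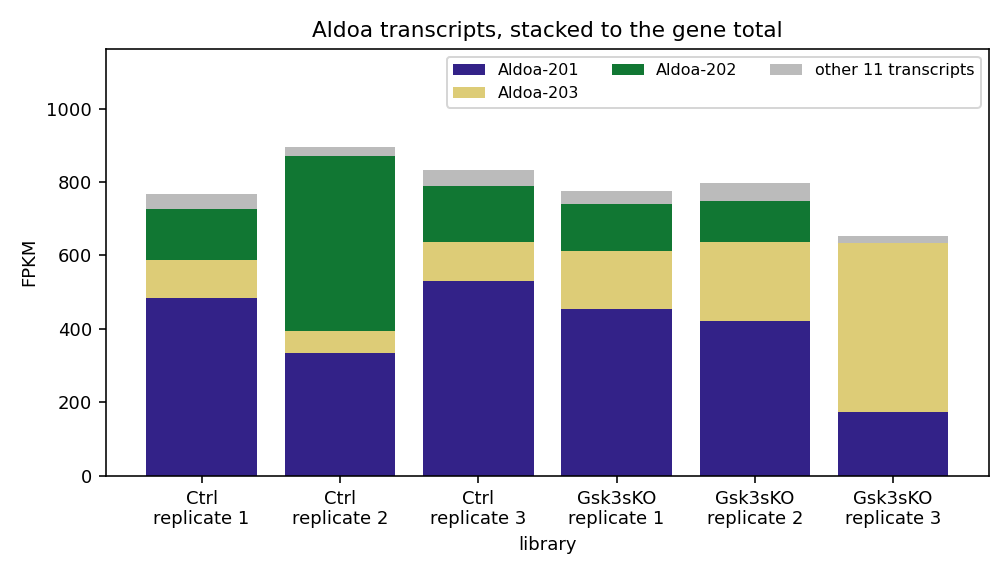
FPKM of the Aldoa transcripts in each library, stacked to the gene total. Aldoa-202 is largest in Ctrl replicate 2 and Aldoa-203 in Gsk3sKO replicate 3, at 475.7 and 461.1 FPKM, so libraries of 1 group differ from each other.

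Gapdh, at chr6:125161715-125166467 on the minus strand, totalled 77.9, 59.2 and 62.2 FPKM in Ctrl and 55.2, 35.6 and 37.3 FPKM in Gsk3sKO, without overlap. Its log2 fold change was -0.64 (standard error 0.20). Most of it was Gapdh-203 (ENSMUST00000118875), at 53.5 ± 8.52 and 34.8 ± 12.8 FPKM (SD, n = 3 each). Gapdh-204 (ENSMUST00000144205), annotated as a processed transcript without a coding region, was at 8.21, 5.15 and 4.47 FPKM in Ctrl, compared with 2.89, 0.40 and 1.93 FPKM in Gsk3sKO.

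These Gapdh values hold only a small share of the RNA that reads like Gapdh. The mouse genome carries many processed copies of it, and 70 genes in the table, with 71 transcripts, 69 of them pseudogenes, matched Gapdh at 95% identity or more over at least 200 bases. The most abundant copy, Gm5559 on chromosome 5, was 99.9% identical to Gapdh over 1002 bases, with 1 mismatch. A stretch of 120 bases of both is shown, from base 325 to base 444 of the aligned 1002, because it holds the only base that tells them apart, which is in capitals.
Gapdh: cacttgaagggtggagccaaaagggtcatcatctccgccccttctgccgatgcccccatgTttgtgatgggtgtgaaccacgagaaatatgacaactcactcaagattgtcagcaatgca
Gm5559: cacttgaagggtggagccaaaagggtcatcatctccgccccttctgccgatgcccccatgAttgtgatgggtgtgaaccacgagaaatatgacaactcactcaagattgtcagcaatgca

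The copies summed to 636.5, 719.4 and 838.4 FPKM in Ctrl and to 872.4, 778.9 and 599.3 FPKM in Gsk3sKO, or 91.5% ± 2.13 and 94.6% ± 0.88 of Gapdh and copies together (SD, n = 3 each). Gapdh with its copies was at 798 ± 94.6 FPKM in Ctrl and 793 ± 147 FPKM in Gsk3sKO (SD, n = 3 each), a log2 fold change of -0.02, and was not called. Reads that match several of these genes cannot be placed on one of them, so the Gapdh gene total is uncertain. For the other members the copies held far less, at most 14.9% of the sum for Pgk1 and 4.3% for Tpi1, and no copy was found for Aldoa, Aldoc, Eno2 or Pkm.

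**Figure D5:**
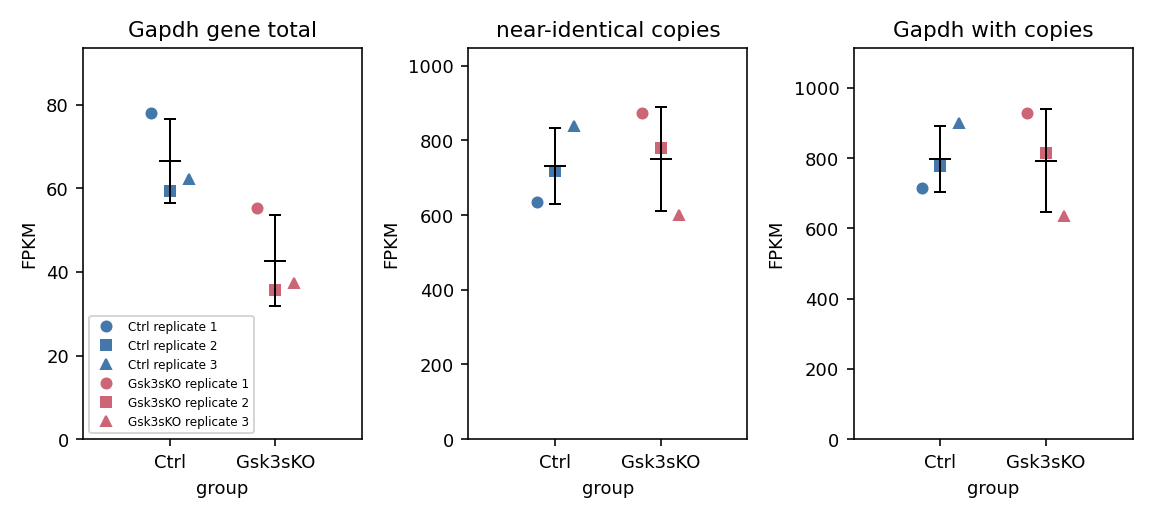
Gapdh gene total, its near-identical copies and their sum in FPKM, each panel on its own axis from 0, with 3 libraries a group and bars for the mean ± SD. The groups are apart for the Gapdh total and overlap for the copies and for the sum, which lies between 636.6 and 927.6 FPKM.

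Pgk1, the X-linked kinase that forms the first ATP of the pathway, was at 138.3, 124.2 and 112.6 FPKM in Ctrl, compared with 115.2, 109.9 and 92.2 FPKM in Gsk3sKO. Its groups overlapped, and its log2 fold change of -0.24 (standard error 0.14) was -0.15 without Gsk3sKO replicate 3. Nearly all of it was Pgk1 transcript ENSMUST00000081593, at 125 ± 13.0 and 106 ± 12 FPKM (SD, n = 3 each). Eno2 was at 153.9, 198.1 and 226.8 FPKM in Ctrl, compared with 168.9, 220.9 and 127.2 FPKM in Gsk3sKO, and its main transcript Eno2-201 (ENSMUST00000004378) at 115 ± 53.0 and 105 ± 22.4 FPKM (SD, n = 3 each). Eno2 held 38.0% ± 4.47 of the summed enolases Eno1, Eno1b and Eno2 in Ctrl and 36.4% ± 4.04 in Gsk3sKO (SD, n = 3 each).

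Pkm, at chr9:59656368-59679375 on the plus strand, encodes the M1 and M2 forms of pyruvate kinase through a choice between 2 exons of equal length. ENSMUST00000163694 carries the upstream exon, that of M1, and ENSMUST00000034834 the downstream exon, that of M2. Each exon has 167 bases and is exon 9 of 11 in its transcript. The exons are shown because they are what separates the forms, and capitals mark the 64 bases at which they differ (61.7% identity).
M1 exon, chr9:59675029-59675195: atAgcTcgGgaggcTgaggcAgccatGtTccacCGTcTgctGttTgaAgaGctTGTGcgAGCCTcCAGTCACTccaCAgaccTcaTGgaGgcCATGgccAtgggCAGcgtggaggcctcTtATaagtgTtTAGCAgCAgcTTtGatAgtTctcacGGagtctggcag
M2 exon, chr9:59675568-59675734: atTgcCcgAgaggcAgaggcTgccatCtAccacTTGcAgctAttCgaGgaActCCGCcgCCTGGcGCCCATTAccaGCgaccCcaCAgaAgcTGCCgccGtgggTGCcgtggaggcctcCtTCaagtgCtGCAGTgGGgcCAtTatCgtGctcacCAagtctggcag

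The M1 transcript was the major form in each library, at 419 ± 81.0 FPKM in Ctrl and 371 ± 50.3 FPKM in Gsk3sKO (SD, n = 3 each). The M2 transcript was at 19.5, 63.2 and 67.4 FPKM in Ctrl, compared with 48.1, 111.8 and 74.3 FPKM in Gsk3sKO. Its share of the 2 was 3.71%, 15.5% and 14.2% in Ctrl and 10.2%, 23.4% and 18.7% in Gsk3sKO, so the groups overlapped. The Pkm total was 469 ± 58.7 and 449 ± 44.6 FPKM (SD, n = 3 each).

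Ldhb, the heart-type subunit, was at 233.0, 205.3 and 235.6 FPKM in Ctrl, compared with 241.0, 203.2 and 205.3 FPKM in Gsk3sKO. Almost all of it was Ldhb transcript ENSMUST00000032373, at 216 ± 13.3 and 208 ± 22.4 FPKM (SD, n = 3 each). Ldhb held 68.3% ± 2.22 of Ldha and Ldhb together in Ctrl and 69.9% ± 3.01 in Gsk3sKO (SD, n = 3 each). The subunit balance therefore differed by less than the spread of the libraries, although the Ldha transcripts exchanged places.

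Of the 83 member transcripts, 41 had a mean of at least 1 FPKM and were tested, and 8 were at 0 in each library. The Ldha transcripts had prompted the choice of the members, so the following counts are descriptions of it. In limma 5 were called at an unadjusted p under 0.05, beside 5.56% of all transcripts (3.75% lower and 1.81% higher), and 0 after adjustment, beside 0%. An ordinary linear model called 6. These 5 were Ldha-201, Ldha-205 and Gapdh-204, lower in Gsk3sKO, and Ldha-202 and Aldoa-203, higher in Gsk3sKO. Ldha-205 passed the filter through Ctrl, with a mean of 3.99 FPKM there and 0.57 FPKM in Gsk3sKO. All 5 differed by more than 2-fold, as did 4.33% of all transcripts at that p. The groups did not overlap for 10 of the 41, beside 11.2% of all transcripts. Without Ctrl replicate 2 the count was 3. The shares given over all transcripts are those of the main limma fit, so the counts of 6 and 3 stand without one.

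Summed over the 10 members, the level was 2309, 2361 and 2372 FPKM in Ctrl and 2293, 2352 and 1826 FPKM in Gsk3sKO. The groups overlapped, and Gsk3sKO replicate 3 stood below the other 5 libraries. With the near-identical copies added, the sum was 3109.5 ± 132.6 FPKM in Ctrl and 2937 ± 423.3 FPKM in Gsk3sKO (SD, n = 3 each). The share and the pattern that follow leave these copies out. As a share of the summed FPKM of all transcripts, which ran from 608528 in Ctrl replicate 1 to 385795 in Gsk3sKO replicate 3, the members held 0.46% ± 0.10 in Ctrl against 0.54% ± 0.06 in Gsk3sKO (SD, n = 3 each), the opposite direction. Among 5842 other gene totals with a mean of at least 10 FPKM, the closest in pattern to this sum over the 6 libraries were Kif1bp, Tubb2a and Tagln3, by root mean square distance of centred log2(FPKM + 1), at 0.03, 0.03 and 0.04, beside a median distance of 0.23.

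The other genes of glucose metabolism, 113 in 8 lists, gave a further view of the pathway. Of these, 88 were tested and 4 were called at an unadjusted p under 0.05 in limma (3 lower and 1 higher), a share of 4.55% beside 6.56% of all gene totals, and 0 after adjustment. An ordinary linear model called 2, beside 695 of 12874 gene totals. The count was 2 without Ctrl replicate 3 or Gsk3sKO replicate 2, beside 916 and 638 of all gene totals. It was 8 without Gsk3sKO replicate 1, beside 1175. The median log2 fold change was 0.00.

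Mpc1, a subunit of the mitochondrial pyruvate carrier, was lower, at 58.0, 59.9 and 44.3 FPKM in Ctrl and 34.1, 36.9 and 27.0 FPKM in Gsk3sKO, without overlap (log2 fold change -0.71, limma adjusted p = 0.528). Pgls, of the pentose phosphate pathway, was at 6.88 ± 1.52 and 3.19 ± 1.52 FPKM (SD, n = 3 each; limma adjusted p = 0.688). Got1, an aminotransferase of the malate-aspartate shuttle, was at 109 ± 9.24 and 84.6 ± 13.8 FPKM (SD, n = 3 each; limma adjusted p = 0.75). Pgam2, a phosphoglycerate mutase best known from muscle, was higher, at 7.71 ± 0.96 and 12.4 ± 3.05 FPKM (SD, n = 3 each; limma adjusted p = 0.692). With the libraries scaled to equal summed FPKM, Mpc1, Pgls and Got1 were not called, Pgam2 was, and the 4 genes called in these lists were all higher.

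Of 12 other glycolytic enzymes tested, 1 was called, and the most abundant, Eno1 and Hk1, were at 254 ± 12 and 112 ± 16.9 FPKM in Ctrl and 248 ± 53.0 and 119 ± 5.51 FPKM in Gsk3sKO (SD, n = 3 each). Of 10 carriers 1 was called, of 8 pentose phosphate genes 1 and of 9 shuttle genes 1. None of the 4 genes that control phosphofructokinase, 12 of pyruvate dehydrogenase and carboxylase, 15 of glycogen metabolism or 18 of the hypoxia-inducible factor and its targets was called in limma. Bsg, the partner of the lactate carriers, was at 163 ± 16.2 FPKM in Ctrl and 190 ± 15 FPKM in Gsk3sKO (SD, n = 3 each). Its groups did not overlap, as for 12% of all gene totals, and it was not called. The neuronal glucose carrier Slc2a3 was at 45.2 ± 3.30 and 42.0 ± 5.98 FPKM (SD, n = 3 each). Among the most abundant genes of the remaining lists, Pdha1 was at 85.2 ± 3.41 and 87.1 ± 3.56 FPKM (SD, n = 3 each). Mdh2 was at 211 ± 34.3 and 223 ± 27.8 FPKM, and Bnip3 at 55.2 ± 7.35 and 60.4 ± 7.57 FPKM (SD, n = 3 each). The groups overlapped for Pdha1, Mdh2 and Bnip3. Their list neighbors Dld, Mdh1 and Bnip3l had log2 fold changes of 0.12, 0.15 and 0.06. Those of the pentose phosphate enzymes Taldo1 and Tkt were 0.10 and -0.16, those of the glycogen genes Pgm2l1 and Pygb 0.17 and -0.18, and those of Pfkfb2 and Tigar, which set the level of the main activator of phosphofructokinase, 0.26 and 0.34. The less abundant Pfkfb3 and Pfkfb4 of the same list, named after their values were seen, had log2 fold changes of -0.73 and -0.35, and the list's median was -0.05.

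The targeted gene and the cell type markers bear on how these values can be read. Gsk3b was at 35.6, 53.8 and 56.5 FPKM in Ctrl and 36.9, 37.0 and 33.6 FPKM in Gsk3sKO, with overlap through Ctrl replicate 1. These values are RNA and give no protein level. In the mPFC the paper judged the knockout by protein, and reported that most Flag-Cas9 cells in the injected region lacked GSK3β staining. In a cell line it also measured mutations of the DNA at the target site. Drd2 was at 1.58, 6.02 and 14.1 FPKM in Ctrl and 8.32, 5.96 and 7.28 FPKM in Gsk3sKO. A list of 5 genes of mPFC D2 neurons held Drd2, Slc17a7, Gad1, Gad2 and Rpl22. Of these, 4 were higher, 1 was lower and 0 were called in limma. Only Drd2 is the receptor gene, and the others are not particular to D2 neurons, so the list does not measure D2 identity. Its sums were 440.3 to 618 FPKM in Ctrl and 485.8 to 569.3 FPKM in Gsk3sKO. Slc17a7 averaged 251 FPKM and Gad1 154 FPKM over all libraries, against 7.2 FPKM for Drd2. The lower one, Slc17a7, was at 262.2, 272.6 and 264.3 FPKM in Ctrl and 253.5, 261.2 and 191.9 FPKM in Gsk3sKO. Astrocyte markers, 9 of 9 tested, summed to between 156 and 192 FPKM in Ctrl and between 157 and 206.9 FPKM in Gsk3sKO, with 0 called in limma. Of 6 oligodendrocyte markers 3 were called lower, beside 5.2% of all gene totals, with sums of 118 to 183 and 128 to 165 FPKM, and Mog was at 0 in Gsk3sKO replicates 2 and 3. Of 5 microglia markers tested 2 were called lower, beside the same 5.2%. Over all 6 listed, the untested Tmem119 included, the sums were 20.3 to 26.7 FPKM in Ctrl and 14.7 to 21.6 FPKM in Gsk3sKO. Of 6 neuron, 5 endothelial and 4 red blood cell markers tested 0 were called in limma. The part of these cells in the members' values was not tested.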

How the data were processed

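RiboTag immunoprecipitation RNAseq of 6 libraries, 3 Ctrl and 3 Gsk3sKO, was analysed. Groups and replicate numbers came from the labels. The authors deposited FPKM per transcript and library. The submitters' processing notes name HISAT2 2.1.0, SAMtools 1.9 and StringTie 1.3.4d on GRCm38, with no settings stated in the sources read. Columns of the authors' own fold change, p-value and q-value were not used, and 0 columns of library values were left out. The detailed methods in the Supplementary Data were not used.

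The FPKM of transcripts was summed by gene identifier. Transcripts were matched to GENCODE M21, in which 114332 were found and 888 were not, and all 83 member transcripts were found. Near-identical copies were annotated transcripts matched with BLAST 2.17.0 at 95% identity or more over at least 200 bases. Promoter windows were the 250 bases upstream of RefSeq starts (15 windows, 10 of 10 members matched). FPKM keeps no read count. The spacing of low values gave 28840000 to 47060000 reads a library by the best spacing, and 14420000 to 23530000 by a spacing 2 times as wide, so depth was known only within a factor of 2, and 17.7% to 34.1% of low values lay near whole reads. No intervals from counting were therefore computed.

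The groups were compared in limma 3.58.1 under R 4.3.3 (lmFit, eBayes with a trend) on log2(FPKM + 1), with a pseudocount of 1, for gene totals and transcripts averaging 1 FPKM or more, 2-sided, with Benjamini-Hochberg adjustment over all of them. Fold changes on this scale understate those of low genes. A gene or transcript was called at an unadjusted p under 0.05. The fit was tested on simulated data. Named were the members, their most abundant transcripts, member transcripts called with a fold over 2, the called genes and most abundant genes of the other lists, Gsk3b and the 3 gene totals most like the summed members. The members and lists were chosen with earlier results of these data known. Alternatives were another pseudocount, other filters, protein-coding transcripts alone, rescaling, an ordinary linear model, a replicate block, leaving out each library, and, chosen after seeing the data, adding the near-identical copies and scaling the libraries to equal summed FPKM. Python 3.11.15, numpy 2.4.6, pandas 2.3.3 and matplotlib 3.10.9 were used.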

Additional observations from a re-analysis of the deposited data

How the results depend on the processing

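The fall of Ldha-201 kept its direction under each alternative run. The directions of the gene totals did not: with the libraries scaled to equal summed FPKM, an alternative chosen after seeing the data, the log2 fold change was 0.20 for the Ldha gene total, 0.20 for the median of the members and 0.24 for their summed FPKM, the median of all gene totals rose from -0.06 to 0.25, the members called were 0, and 241 gene totals were called lower and 876 higher. Relative to the median of all gene totals, the members' median lay lower on either scale with all libraries kept. Without Gsk3sKO replicate 3 it did not, at -0.032 beside -0.035 for all gene totals. With a pseudocount of 0.1 the log2 fold change of Ldha-201 was -7.41, and it ran from -6.17 to -5.14 as single libraries were left out. The Ldha gene total ran from -0.23 to -0.05 as single libraries were left out, and the median of the members from -0.23 to -0.03. With the near-identical copies added, an alternative chosen after seeing the data, the count of members called among gene totals was 0 and Gapdh had a log2 fold change of -0.02, since the copies hold most of the summed FPKM. Of the member transcripts, 3 were called with a mean FPKM of at least 5, of 24 then tested, and between 3 and 6 as single libraries were left out. These counts of transcripts stand without a background share. The count of called genes in the other lists was 2 in an ordinary linear model and between 2 and 8 as single libraries were left out. Got1 was no longer called under 8 alternatives, Pgls under 4, Pgam2 under 3 and Mpc1 under 1, and the cause was not tested.

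Replicate numbers did not pair the libraries: the correlations of same-numbered deviations were -0.03, -0.01 and -0.08, and no library correlated best with its own number. With the replicate block the count of called genes in the other lists was 7, beside 821 of 12874 gene totals. In the same setting 7 member transcripts were called, without a background share, and the log2 fold change of the Ldha gene total was -0.16. Over all gene totals, 844 were called (669 lower and 175 higher), 803 after rescaling to the median ratio (549 lower and 254 higher), and between 574 and 1175 as single libraries were left out. After adjustment 6 were called, 0 in an ordinary linear model or with the replicate block, 20 without Ctrl replicate 3 and 20 with equal summed FPKM. Depth known only within a factor of 2 limits what can be said of transcripts near 1 FPKM, and StringTie's division of reads between transcripts limits each statement on a single one.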
